A study of Mus musculus with 21 samples.

Results

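The genes described here are 38 mouse genes of the response to low oxygen and of glycolysis, looked up by symbol among the 55573 genes of the deposited count and TPM tables (TPM scales reads to transcript length and to library size). They comprise 16 glycolytic enzymes, 3 glucose and lactate transporters, 3 regulators of glycolytic flux, the 2 alpha subunits of the hypoxia-inducible factor (HIF), 2 HIF prolyl hydroxylases and 12 other HIF targets. Their symbols matched 39 rows, because Aldoa has a main row and a minor row that never exceeded 2.1 CPM (counts scaled to library size, without regard to length). The main row is used below. Epas1 was too low to test and the other 37 passed the filter on low counts that left 15432 genes. The study asked how ZBTB18, a transcriptional repressor, changes expression in mouse cancer cells.

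RNA was read in 21 libraries of cultured E0771 cells, a mouse mammary tumour line that here carries GFP in all 7 groups, with 3 libraries in each. A line overexpressing ZBTB18 was given a doxycycline-inducible TGFBR2, the type II TGF-β receptor, and treated with doxycycline (labelled 1 mg/mL) together with TGF-β1 (2 ng/mL) or with its vehicle. These 2 groups are called the receptor line below. The ZBTB18OE group overexpressed ZBTB18 without the inducible receptor. M11GFP and M12GFP are lines derived from spontaneous lung metastases of the parental line and received no treatment. EV cells carried an empty vector, and E0771GFP is the untreated parental line. Each group was 1 cell line, the labels name no batch, no oxygen level and no length of treatment, and nothing says that replicates were separate cultures, so p-values measure only the spread between these libraries.

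HIF is a pair of proteins, an alpha subunit made all the time and a partner, Arnt. In oxygenated cells the prolyl hydroxylases mark the alpha subunit for destruction through Vhl, so that HIF activity is set mainly by protein stability and not by the amount of Hif1a mRNA. When oxygen falls the alpha subunit persists, binds short DNA motifs with the core ACGTG or GCGTG, and raises genes for glucose uptake, glycolysis, lactate export, pH control, mitophagy, collagen modification and vessel growth. Tumour cells often run glycolysis at a high rate in air as well.

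Total counts ranged from 24208569 to 90518872 per library. Zbtb18 averaged 113 ± 9.64 CPM in ZBTB18OE cells and 25.1 ± 0.910 CPM in EV cells, and Tgfbr2 averaged 588 ± 32.7 CPM in the receptor line with vehicle and 1.74 ± 0.253 CPM in ZBTB18OE cells (SD, n = 3 each). Some libraries stood apart. E0771GFP replicate 1 had 14.0% of its counts on Gm42418, and M12GFP replicate 2 was the lowest of its group for 14 of the 16 enzymes, against 39.0% of all genes tested. M11GFP replicate 3 was in turn the highest of its group for 14 of the 16 enzymes, against 40.5% of all genes tested. Of 8 breast epithelial markers 5 were under 1 TPM in every ZBTB18OE, EV, M11GFP and receptor-line library, while Krt8 averaged 166 ± 1.36 TPM in ZBTB18OE cells. Summed endothelial markers stayed at or under 3.03 TPM and summed lung epithelial markers at or under 1.39 TPM in every library. In such bulk samples fewer cells of a kind and less RNA per cell cannot be told apart.

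Glycolytic enzyme mRNA was abundant in all 7 groups. Per length, the most abundant of the 16 enzymes in each group mean was Gapdh, which oxidises glyceraldehyde phosphate, with 3102 ± 586 TPM in M12GFP, 4995 ± 217 TPM in EV and 2919 ± 818 TPM in E0771GFP cells (SD, n = 3 each). The EV libraries were above all others, and the ranges of M12GFP and E0771GFP overlapped. Summed over the 16 enzymes, the level was 17247 ± 414 TPM in the receptor line with TGF-β1 and 15734 ± 231 TPM with vehicle. The sum was 13298 ± 279 TPM in ZBTB18OE cells, 10914 ± 2188 TPM in M11GFP, 10000 ± 2274 TPM in M12GFP, 14274 ± 222 TPM in EV and 9859 ± 2556 TPM in E0771GFP cells. The TGF-β1 libraries stood highest, at 16776 TPM or more. These sums are not corrected for shifts of scale between groups. On log2(TPM + 1) the median log2 fold change of all genes against E0771GFP cells was 0.32 in EV, 0.20 in M11GFP and 0.25 in M12GFP. By edgeR the median over the enzymes was 0.15 in EV, 0.03 in M11GFP and -0.19 in M12GFP. E0771GFP replicate 1, the library with many Gm42418 counts, had a sum of 7229 TPM. The engineered lines were tight, and the untreated metastasis and parental lines were not: the median SD of log2 CPM over the enzymes was 0.04 to 0.07 in EV, ZBTB18OE and the receptor line, and 0.23 to 0.34 in M11GFP, M12GFP and E0771GFP. Over all genes tested it was 0.08 to 0.09 in the engineered groups and 0.15 to 0.16 in the others.

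**Figure D1:**
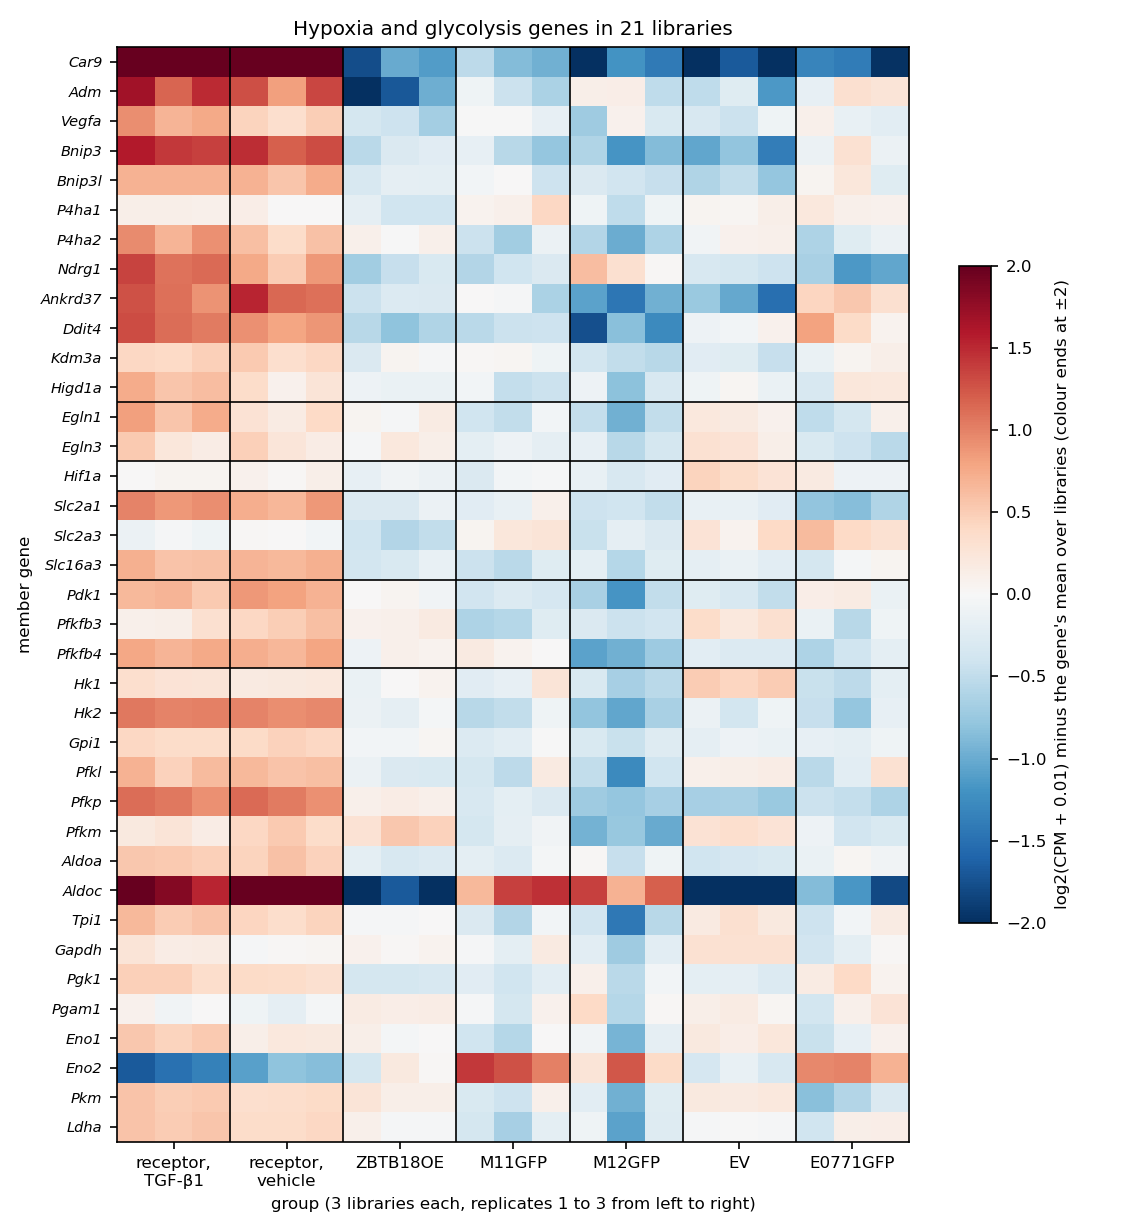
Heat map of the 37 members tested (rows) in the 21 libraries (columns, 3 per group), coloured by log2(CPM + 0.01) minus the gene's mean over libraries. From the top, the blocks are other HIF targets, prolyl hydroxylases, Hif1a, transporters, flux regulators and glycolytic enzymes. The 6 receptor-line libraries are red for most rows, and M12GFP replicate 2 (middle of its 3 columns) is the lowest of its group for 14 of the 16 enzymes. Colours end at 2 above or below the mean.

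Of the alpha subunits, Hif1a supplied at least 99.7% of the summed TPM of the pair in every library. It had 404, 417 and 419 CPM in the receptor line with TGF-β1, 427, 409 and 438 CPM with vehicle and 360.2, 381 and 372 CPM in ZBTB18OE cells. Values were 331, 389 and 397 CPM in M11GFP, 364, 323 and 343 CPM in M12GFP, 547, 516 and 486 CPM in EV and 456, 375 and 375 CPM in E0771GFP cells. All 3 EV libraries lay above every other library, and from the receptor line down through E0771GFP, M11GFP and ZBTB18OE to M12GFP each group's range overlapped that of the next. Epas1, which encodes the other alpha subunit, had between 0 and 9 reads per library, or 0 to 0.163 CPM, so no difference in it was detectable at this depth.

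Of the 7 comparisons run, the receptor line with vehicle against ZBTB18OE cells had the most members past the threshold. With vehicle, 24 of the 37 members tested were higher than in ZBTB18OE cells and 1 was lower, by edgeR's quasi-likelihood test at an adjusted p of 0.05. Over all genes tested 19.5% were higher and 19.3% lower in that comparison. The median log2 fold change was 0.51 over the members and -0.000909 over all genes tested. Of the 12 other HIF targets 11 were higher, with a median log2 fold change of 1.05, and the remaining one, Higd1a, a mitochondrial membrane protein, gave 0.37 ± 0.15 (SE), adjusted p = 0.0624. All 3 transporters and all 3 flux regulators were higher, 7 of the 16 enzymes were higher and 1 lower, with a median of 0.39, and neither prolyl hydroxylase nor Hif1a passed. The call on all 25 of these genes held when any of the 6 libraries was left out. The groups differ in line, in the receptor and in doxycycline, which cannot be told apart. Zbtb18 itself differed too, at 82.9 ± 6.49 CPM with vehicle and 113 ± 9.64 CPM in ZBTB18OE cells (SD, n = 3 each). Its log2 fold change was -0.45 ± 0.10 (SE), adjusted p = 0.00162 by the same test, and its part in the result was not tested.

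Car9, a cell-surface carbonic anhydrase with a part in pH control, had 27.7, 34.1 and 30.3 CPM in the receptor line with vehicle, against 0.715, 1.22 and 1.13 CPM in ZBTB18OE cells. The groups were far from overlapping, with a log2 fold change of 4.90 ± 0.23 (SE), adjusted p = 6.29e-13. Adm, which encodes the vasodilator peptide adrenomedullin, had 69.7, 50.2 and 71.3 CPM with vehicle, against 6.07, 8.80 and 14.4 CPM in ZBTB18OE cells. Its log2 fold change was 2.703 ± 0.30 (SE), adjusted p = 3.06e-06, and the lowest vehicle library was above the highest ZBTB18OE library. Bnip3, a mitophagy receptor on the outer mitochondrial membrane, had 219.8, 181 and 197 CPM with vehicle, against 54.4, 65.0 and 68.0 CPM in ZBTB18OE cells. Every vehicle library was at a level above all ZBTB18OE libraries (1.67 ± 0.17 (SE), adjusted p = 3.55e-07, log2 fold change). Ankrd37, an ankyrin-repeat protein gene, had 12.02, 9.30 and 8.97 CPM with vehicle, against 3.09, 3.47 and 3.43 CPM in ZBTB18OE cells, again without overlap (1.60 ± 0.19 (SE), adjusted p = 8.60e-07, log2 fold change).

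The promoters of these 4 genes, which had the largest folds among the other HIF targets, are shown because they are where a HIF motif could lie. They come from the RefSeq table for GRCm38.p6 and run from 250 bases before to 50 bases after the annotated start, 5′ to 3′ on the gene's strand, with each ACGTG or GCGTG core on either strand (CACGT and CACGC in reverse) in capitals. The intervals are chr4:43506776-43507075 (plus strand), chr7:110627407-110627706 (plus strand), chr7:138909457-138909756 (minus strand) and chr8:45999801-46000100 (minus strand).
Car9: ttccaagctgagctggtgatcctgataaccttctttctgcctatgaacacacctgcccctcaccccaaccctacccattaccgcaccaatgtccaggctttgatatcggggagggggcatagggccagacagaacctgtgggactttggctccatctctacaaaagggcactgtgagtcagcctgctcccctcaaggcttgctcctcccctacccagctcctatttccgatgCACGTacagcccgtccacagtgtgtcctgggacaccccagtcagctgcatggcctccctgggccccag
Adm: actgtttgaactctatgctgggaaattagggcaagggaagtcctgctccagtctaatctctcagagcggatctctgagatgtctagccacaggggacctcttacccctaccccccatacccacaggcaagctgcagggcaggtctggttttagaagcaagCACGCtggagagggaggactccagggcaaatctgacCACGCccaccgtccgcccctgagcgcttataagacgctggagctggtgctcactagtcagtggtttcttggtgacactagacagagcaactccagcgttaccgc
Bnip3: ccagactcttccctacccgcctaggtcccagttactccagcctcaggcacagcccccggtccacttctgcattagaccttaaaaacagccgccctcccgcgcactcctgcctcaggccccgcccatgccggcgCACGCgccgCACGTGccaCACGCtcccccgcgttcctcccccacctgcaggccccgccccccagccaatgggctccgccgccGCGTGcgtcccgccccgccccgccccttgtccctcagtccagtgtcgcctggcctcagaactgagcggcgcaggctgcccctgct
Ankrd37: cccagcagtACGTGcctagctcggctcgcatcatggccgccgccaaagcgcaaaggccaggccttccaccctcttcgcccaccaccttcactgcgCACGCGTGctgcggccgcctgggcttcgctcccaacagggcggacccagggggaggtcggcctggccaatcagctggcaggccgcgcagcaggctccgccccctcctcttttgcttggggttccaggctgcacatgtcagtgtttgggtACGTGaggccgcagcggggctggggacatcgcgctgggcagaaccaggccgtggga
Car9 holds 1 core, its first base 18 bases before the start, Adm 2 of the GCGTG form, Bnip3 5 (2 of them overlapping, 1 on each strand) and Ankrd37 4 (again with 1 overlapping pair). Among the 16 enzymes 13 hold a core. No relation between cores and folds was tested.

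Promoters were matched for 34 of the 38 members. At least 1 core was found for 31 of these genes (91.2%), against 46.7% of all 27025 genes with a promoter in the table and 66.7% of the genes tested here. A gene counted if any of its promoters held a core, and the 34 members had 50 promoters. Counted per promoter, the shares were 78.0% for the members, 43.8% for all 32851 promoters and 60.7% for those of genes tested. The ACGTG form alone was found for 70.6% of the members, 21.8% of all genes and 29.2% of the genes tested, or per promoter for 54.0%, 19.6% and 25.2%. Median GC content was 62.2% over the members' promoters, 52.7% over all promoters and 60.3% over those of genes tested. By role, 10 of 10 other HIF targets with a promoter and 13 of 16 enzymes held a core. Per promoter these shares were 76.9% and 74.1%. A core of this length occurs often by composition alone, and its presence describes the sequence and does not show that HIF binds there.

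Ddit4, an inhibitor of mTOR signalling, had 149, 136 and 146 CPM in the receptor line with vehicle, against 53.4, 45.1 and 52.2 CPM in ZBTB18OE cells. The groups did not overlap (1.51 ± 0.17 (SE), adjusted p = 1.44e-06, log2 fold change). Ndrg1, a stress-responsive gene, had 184, 155 and 198 CPM with vehicle, against 66.9, 79.3 and 88.0 CPM in ZBTB18OE cells, with 1.196 ± 0.14 (SE), adjusted p = 1.63e-06 as the log2 fold change. The lowest vehicle library again exceeded the highest ZBTB18OE library. Vegfa, the main angiogenic growth factor, had 137, 127 and 142 CPM against 78.4, 75.3 and 62.9 CPM in ZBTB18OE cells (0.91 ± 0.14 (SE), adjusted p = 4.34e-05). Bnip3l, the close relative of Bnip3, had 364, 333 and 377 CPM against 179.9, 200.2 and 196 CPM in ZBTB18OE cells (0.90 ± 0.11 (SE), adjusted p = 2.00e-06). Neither gene's groups overlapped. Part of the reads of Bnip3l can belong to its pseudogene, which took 5.33 to 6.69% of their summed counts, and adding those reads changed no call.

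Among the other HIF targets with folds under 1.5, the collagen prolyl hydroxylase subunits P4ha1 and P4ha2 and the histone demethylase Kdm3a were higher by log2 fold changes of 0.37, 0.46 and 0.51. P4ha2 did not pass in a limma fit on log2 TPM.

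**Figure D2:**
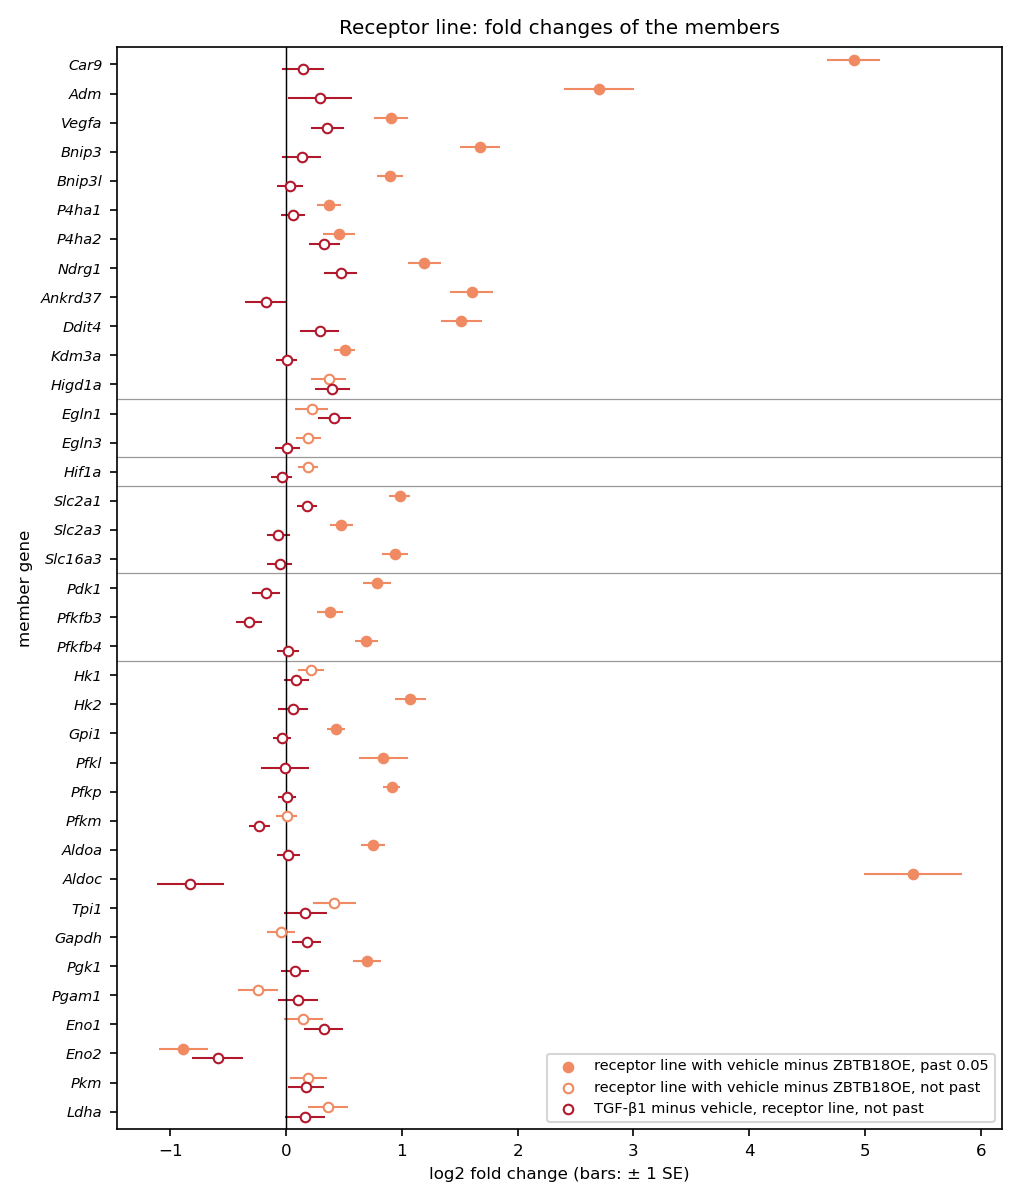
Log2 fold change of each member tested (x axis, bars ± 1 SE from edgeR) for the receptor line with vehicle minus ZBTB18OE cells and for TGF-β1 minus vehicle in the receptor line. Filled points passed an adjusted p of 0.05 and open points did not. Car9 at 4.90 and Aldoc at 5.41 lie far to the right, Eno2 is the only filled point below 0, and all TGF-β1 points are open.

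The genes for glucose entry and lactate exit were higher too. Slc2a1, the basal glucose transporter GLUT1, had 365, 351 and 404 CPM in the receptor line with vehicle, against 182, 182 and 204 CPM in ZBTB18OE cells (0.98 ± 0.09 (SE), adjusted p = 2.04e-08, log2 fold change). Slc16a3, the lactate exporter MCT4, had 705, 689.8 and 722 CPM with vehicle, against 344, 358 and 399.9 CPM in ZBTB18OE cells (0.94 ± 0.11 (SE), adjusted p = 6.62e-07). In both genes all vehicle libraries exceeded all ZBTB18OE libraries, and Slc2a3, the neuronal-type glucose transporter GLUT3, was also higher, with a log2 fold change of 0.48. Pdk1, a kinase that inhibits pyruvate dehydrogenase, had 298, 284 and 263 CPM with vehicle, against 163, 170.0 and 156 CPM in ZBTB18OE cells (0.79 ± 0.12 (SE), adjusted p = 3.09e-05). Pfkfb4, which makes and breaks down the sugar bisphosphate that activates phosphofructokinase, had 43.2, 41.4 and 45.3 CPM with vehicle, against 24.5, 28.2 and 27.6 CPM in ZBTB18OE cells (0.70 ± 0.10 (SE), adjusted p = 1.06e-05). Neither pair of groups overlapped. Pfkfb3, with the same reaction, was higher by a log2 fold change of 0.38 and, like P4ha2, did not pass in the limma fits on log2 TPM.

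Apart from the scarce Aldoc, Hk2, Pfkp and Pfkl had the largest folds among the enzymes that were higher. Hk2, the inducible hexokinase, had 179.7, 172 and 175 CPM in the receptor line with vehicle, against 83.4, 79.3 and 87.5 CPM in ZBTB18OE cells (1.07 ± 0.13 (SE), adjusted p = 1.51e-06, log2 fold change). Pfkp, the platelet-type phosphofructokinase, had 583, 549 and 503 CPM with vehicle, against 288, 296 and 286 CPM in ZBTB18OE cells (0.91 ± 0.08 (SE), adjusted p = 6.58e-09). Groups were well apart in both. Pfkl, the liver-type phosphofructokinase, had 228, 215 and 219 CPM with vehicle, against 134, 118 and 117 CPM in ZBTB18OE cells (0.84 ± 0.21 (SE), adjusted p = 0.00435). Aldoa, the main aldolase here, had 1258, 1386 and 1274 CPM with vehicle, against 811, 746 and 769 CPM in ZBTB18OE cells (0.75 ± 0.10 (SE), adjusted p = 5.26e-06). Neither overlapped between groups. Pgk1, which makes the first ATP of the pathway, had 1741, 1719.9 and 1677 CPM with vehicle, against 1049.9, 1049 and 1069 CPM in ZBTB18OE cells (0.70 ± 0.12 (SE), adjusted p = 9.80e-05), and Gpi1 was higher by a log2 fold change of 0.43. Named pseudogene rows took 11.6 to 14.0% of the summed counts of Pgk1 and its relatives, and adding them changed no call.

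The minor isoenzymes went opposite ways at low levels. Aldoc, the brain-type aldolase, had 3.88, 2.37 and 2.33 CPM in the receptor line with vehicle, against 0.0580, 0.125 and 0.0182 CPM in ZBTB18OE cells, where only 10 reads were counted over the 3 libraries. Its log2 fold change of 5.41 ± 0.42 (SE), adjusted p = 2.20e-09 therefore rests on few reads on 1 side. Eno2, the neuron-type enolase, had 2.11, 2.57 and 2.49 CPM with vehicle, against 3.52, 5.15 and 4.56 CPM in ZBTB18OE cells, all vehicle libraries being below all ZBTB18OE libraries (-0.89 ± 0.21 (SE), adjusted p = 0.00209). Hk1, Pfkm, Tpi1, Gapdh, Pgam1, Eno1, Pkm and Ldha did not pass in the fit over all groups, with log2 fold changes from -0.24 for Pgam1 to 0.42 for Tpi1. With only the 6 libraries of this comparison Hk1, Tpi1, Pkm and Ldha passed as higher and Pgam1 as lower. Hif1a, Egln1 and Higd1a passed there too. Tpi1, Ldha and Higd1a also passed with no filter, and Hif1a with DESeq2 and with a filter of 1 CPM in 3 libraries.

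Other markers moved between these groups as well. The summed level of 6 fibroblast markers was 44.8 to 46.9 TPM in the receptor line with vehicle and 140 to 179 TPM in ZBTB18OE cells. That sum mostly followed Col3a1, at 6.97 ± 1.55 TPM and 117 ± 17.3 TPM (SD, n = 3 each). Pdgfra also had a lower mean with vehicle. Col1a1 went the other way, with means of 2.85 TPM with vehicle and 0.24 TPM in ZBTB18OE cells. So did Pdgfrb, at 5.77 and 2.95 TPM. The summed breast epithelial markers were 231 to 260 TPM with vehicle and 180 to 183 TPM in ZBTB18OE cells. That sum mostly followed Krt8 (means of 237 and 166 TPM), while Erbb2 went the other way (5.79 and 12.9 TPM). Mitochondrial genes took 0.586 to 0.734% of counts with vehicle and 1.00 to 1.09% in ZBTB18OE cells. Their part in the result was not tested.

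The wider HIF and glycolysis lists, which hold 63 further genes in the table and 48 tested, gave 17 higher and 7 lower, beside the 19.5% and 19.3% of all genes tested. Among 20 other HIF target genes tested 8 were higher and 1 lower. Bhlhe40, a circadian and hypoxia-responsive repressor, averaged 211 ± 6.07 CPM with vehicle and 64.9 ± 4.44 CPM in ZBTB18OE cells (SD, n = 3 each), a log2 fold change of 1.70 ± 0.08 (SE), adjusted p = 1.77e-12. Plod2, a collagen lysyl hydroxylase, averaged 178 ± 8.78 CPM with vehicle and 81.3 ± 2.39 CPM in ZBTB18OE cells, and Fam162a 91.9 ± 0.569 CPM and 52.2 ± 2.96 CPM. The exception, Car12, another membrane carbonic anhydrase, averaged 3.14 ± 0.236 CPM with vehicle and 11.02 ± 2.08 CPM in ZBTB18OE cells (-1.81 ± 0.19 (SE), adjusted p = 1.28e-07, log2 fold change), so the carbonic anhydrases moved in opposite directions. Of 22 other glycolysis and pyruvate genes tested 7 were higher and 3 lower, and the glycogen genes Pgm1 and Gys1 were higher by log2 fold changes of 0.85 and 0.79. In the HIF machinery, Cited2, a competitor for HIF's coactivators, was higher by 0.99, and Hif1an, which hydroxylates the alpha subunit to block coactivator binding, was lower at -0.72.

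Set against all other groups, the receptor line stood out without regard to TGF-β1. For 21 of the 37 members tested, all 6 receptor-line libraries lay above all 15 other libraries, as they did for 6.55% of all genes tested. They comprised 8 of the 12 other HIF targets (Car9, Adm, Vegfa, Bnip3, Bnip3l, P4ha2, Ankrd37 and Kdm3a), 2 transporters (Slc2a1 and Slc16a3), 2 flux regulators (Pdk1 and Pfkfb4) and 9 enzymes (Hk2, Gpi1, Pfkl, Pfkp, Aldoa, Aldoc, Tpi1, Pkm and Ldha). All 6 libraries lay below the 15 others for 1 member, Eno2, and for 5.37% of all genes tested. These counts are descriptions and no test was run on them.

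**Figure D3:**
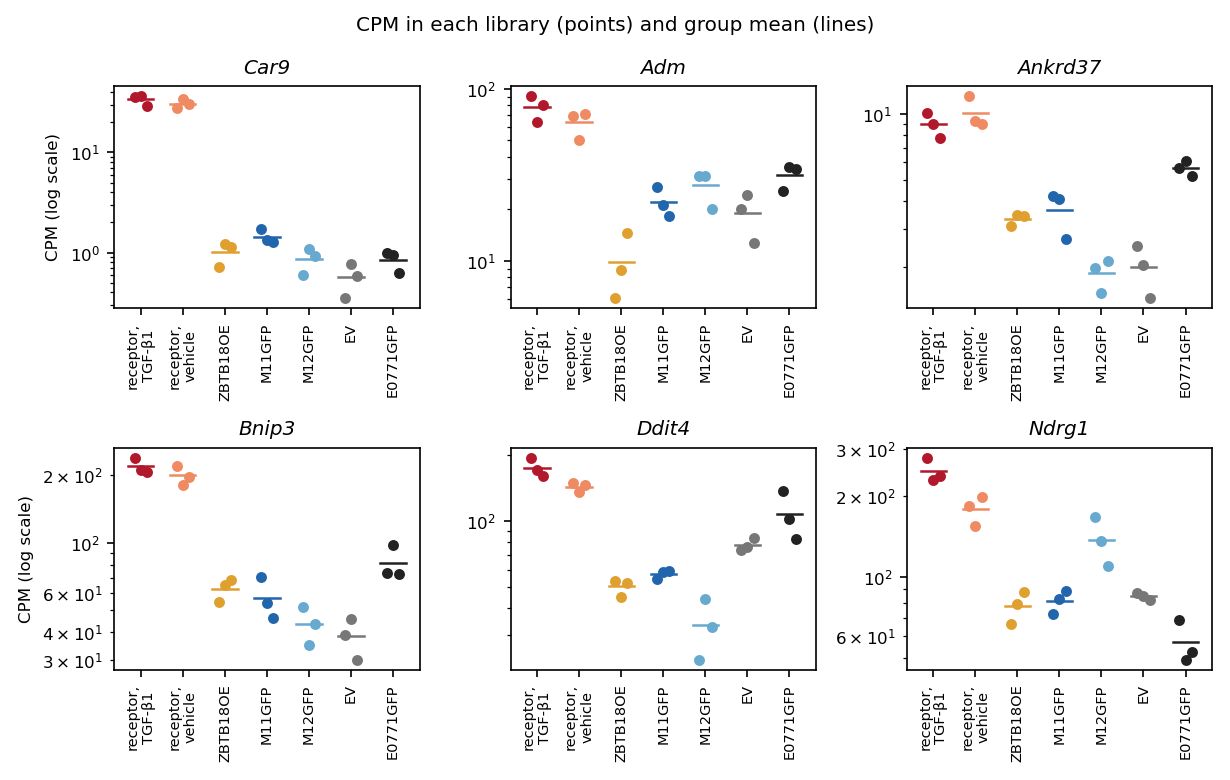
CPM of 6 HIF targets in each library (points, log axis) with group means (lines), for the 7 groups from the receptor line at the left to E0771GFP at the right. Car9 lies between 27.7 and 36.5 CPM in the 6 receptor-line libraries and at or below 1.71 CPM in every other library, and the M12GFP libraries of Ndrg1 lie above all other libraries outside the receptor line.

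In the fit over all groups TGF-β1 took none of these genes past the threshold, and few genes of any kind. By edgeR's quasi-likelihood test 0 of 37 members passed in either direction in the receptor line given TGF-β1 against vehicle. Of all genes tested 1.26% were higher and 0.654% lower, so a count of 0 is near the background. At an unadjusted p under 0.05 there were 5 higher (Ndrg1, P4ha2, Vegfa, Egln1 and Higd1a) and 4 lower (Eno2, Aldoc, Pfkfb3 and Pfkm), where 12.9% of all genes tested fell under that p in either direction, and DESeq2 called 1, Ndrg1. Same-numbered libraries of these groups deviated together, and with the replicate number as a block Egln1 passed (0.42, adjusted p = 0.0459). The call of none also rests on the libraries that share the estimate of spread: with these 6 libraries alone 10 members were higher and 3 lower, and 1349 genes in all were called, against 295 in the fit over all groups. In the fit of these 6 libraries 57.2% of all calls were higher. The share of all genes tested that was called in that fit is not given here, so its member counts stand without a background.

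Ndrg1 had 278, 229.9 and 237 CPM with TGF-β1, against 184, 155 and 198 CPM with vehicle. All TGF-β1 libraries were above all vehicle libraries, with a log2 fold change of 0.47 ± 0.14 (SE), adjusted p = 0.103. Egln1, the main HIF prolyl hydroxylase, had 157, 130.0 and 148 CPM with TGF-β1, against 109, 99.0 and 117 CPM with vehicle, and its groups did not overlap (0.42 ± 0.14 (SE), adjusted p = 0.152). Vegfa had 190.5, 161 and 169 CPM with TGF-β1, against 137, 127 and 142 CPM with vehicle (0.36 ± 0.14 (SE), adjusted p = 0.248), also apart. Car9, whose log2 fold change between the receptor line and ZBTB18OE cells was 4.90, had 36.1, 36.5 and 29.2 CPM with TGF-β1, and these overlapped the vehicle libraries (0.15 ± 0.18 (SE), adjusted p = 0.844). Eno1, at 2148, 1999 and 2116 CPM with TGF-β1 and 1605, 1706 and 1681 CPM with vehicle, was the enzyme with the largest positive log2 fold change, 0.33 ± 0.17 (SE), adjusted p = 0.437. The summed breast epithelial markers were 283 to 284 TPM with TGF-β1 and 231 to 260 TPM with vehicle, and the summed fibroblast markers were 55.1 to 58.9 TPM and 44.8 to 46.9 TPM. Their part was not tested. The replicate number 1 library with TGF-β1 was the highest of its 3 for 14 of the 16 enzymes, against 36.1% of all genes tested. Of the 48 further pathway genes tested 1 passed, Bhlhe40, at 300.3 ± 7.53 CPM with TGF-β1 and 211 ± 6.07 CPM with vehicle (0.51 ± 0.08 (SE), adjusted p = 0.00181, log2 fold change).

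ZBTB18 overexpression alone was set against the empty vector, and members were called in both directions at shares near the background. Higher in ZBTB18OE cells were 7 of 37, or 18.9% (background 14.0% of all genes tested). Lower were 6, or 16.2% (background 14.5%), and the median log2 fold change was -0.06. Among the 16 enzymes only Pfkp was higher and only Hk1 lower. The 12 other HIF targets gave 4 higher and 3 lower, and Hif1a was lower. These counts were sensitive to single libraries: without ZBTB18OE replicate 2 or without EV replicate 3 only 3 members were higher, and a limma fit on log2 TPM gave 4 higher and 4 lower.

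Pfkp had 288, 296 and 286 CPM in ZBTB18OE cells, against 168, 170.4 and 160.1 CPM in EV cells. The groups were wide apart (0.80 ± 0.08 (SE), adjusted p = 6.79e-08, log2 fold change). Car9 had 0.715, 1.22 and 1.13 CPM in ZBTB18OE cells, against 0.351, 0.765 and 0.581 CPM in EV cells (0.95 ± 0.27 (SE), adjusted p = 0.0117), with 1 ZBTB18OE library below the highest EV library. Leaving out ZBTB18OE replicate 2 or EV replicate 1 ended that call. Bnip3 had 54.4, 65.0 and 68.0 CPM in ZBTB18OE cells, against 38.7, 46.0 and 30.3 CPM in EV cells (0.70 ± 0.17 (SE), adjusted p = 0.00422), without overlap. Ankrd37 had 3.09, 3.47 and 3.43 CPM against 2.50, 2.05 and 1.45 CPM in EV cells (0.71 ± 0.20 (SE), adjusted p = 0.00894), also without overlap, and did not pass without EV replicate 3. Bnip3l, Pdk1 and Pfkfb4 were higher by log2 fold changes of 0.38, 0.35 and 0.28. Bnip3l lost its call without ZBTB18OE replicate 2 or EV replicate 3, and Pdk1 and Pfkfb4 each lost theirs in 5 of the 6 fits that left out 1 library and in both limma fits on log2 TPM.

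On the lower side, Adm had 6.07, 8.80 and 14.4 CPM in ZBTB18OE cells, against 20.03, 24.1 and 12.7 CPM in EV cells (-0.95 ± 0.30 (SE), adjusted p = 0.0234, log2 fold change). The groups overlapped, and the call was lost in 4 of the 6 fits that left out 1 library, those without ZBTB18OE replicate 1 or 2 or without EV replicate 1 or 2. Slc2a3 had 18.9, 16.5 and 17.6 CPM in ZBTB18OE cells, against 29.9, 26.1 and 32.7 CPM in EV cells (-0.75 ± 0.10 (SE), adjusted p = 8.51e-06), with every ZBTB18OE library below every EV library. Ddit4 had 53.4, 45.1 and 52.2 CPM against 73.5, 75.9 and 83.3 CPM in EV cells (-0.63 ± 0.17 (SE), adjusted p = 0.00986), apart as well. Its call was lost without ZBTB18OE replicate 2. Hk1, Hif1a and P4ha1 were lower by log2 fold changes of -0.50, -0.48 and -0.39.

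Of the 6 lower members 4 lie on chromosomes where lower genes outnumbered higher ones more than 2 to 1. On chromosome 10, which holds Ddit4, Hk1 and P4ha1, 39 of 726 genes tested were higher in ZBTB18OE cells and 268 lower, with a median log2 fold change of -0.27, and on chromosome 12, which holds Hif1a, 43 of 546 were higher and 138 lower. Pfkl, also on chromosome 10, and Egln3, also on chromosome 12, were not called. Pfkp was higher on chromosome 13, where 19 of 609 were higher and 243 lower. Summed fibroblast markers were 140 to 179 TPM in ZBTB18OE cells and 98.3 to 119 TPM in EV cells, and summed breast epithelial markers were 180 to 183 TPM and 225 to 269.9 TPM. The fibroblast sum mostly followed Col3a1 (means of 117 and 67.1 TPM), and Pdgfra was also higher (37.1 and 31.2 TPM). Pdgfrb (2.95 and 10.8 TPM) and Col1a1 (0.24 and 0.61 TPM) went the other way. The part of these shifts in the calls was not tested. Of the 48 further pathway genes tested 9 were higher and 13 lower in ZBTB18OE cells, beside 14.0% and 14.5% of all genes tested. Loxl2, a lysyl oxidase relative, averaged 97.1 ± 15.6 CPM in ZBTB18OE cells and 5.70 ± 1.14 CPM in EV cells (4.08 ± 0.22 (SE), adjusted p = 1.19e-10, log2 fold change). Car12 averaged 11.02 ± 2.08 CPM and 22.5 ± 1.94 CPM, and Gbe1, the glycogen branching enzyme, 14.3 ± 1.06 CPM and 8.66 ± 0.301 CPM.

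The empty-vector line was then set against its parent. In EV cells 11 of 37 members were higher than in E0771GFP cells and 13 lower, beside 28.9% and 29.0% of all genes tested, so the shares were near the background. Of the 12 other HIF targets 2 were higher and 7 lower, with a median log2 fold change of -0.40, while both prolyl hydroxylases and Hif1a were higher and the enzymes gave 4 higher and 5 lower. The call on Egln1 was lost without replicate 1 or 2 of either line. That on P4ha2, 1 of the 2 higher targets, was lost without EV replicate 2 or 3 or E0771GFP replicate 1 or 2. Both were also lost with only the 6 libraries. This comparison shares its EV libraries with the one above and its E0771GFP libraries with those below. On log2 TPM with limma the median of all genes shifted by 0.32 and 16 members were higher and 4 lower, with Pfkp and Aldoa on the other side of 0. Of all calls 78.4% were then higher in EV cells, against 49.9% by edgeR, so the directions of small differences here depend on the scale. By edgeR 7 members were lower without EV replicate 1 and 8 without E0771GFP replicate 2. Mitochondrial genes took 0.861 to 1.07% of counts in EV and 2.41 to 2.56% in E0771GFP cells, and summed fibroblast markers were 98.3 to 119 TPM and 34.6 to 41.7 TPM. The fibroblast sum mostly followed Col3a1 (means of 67.1 and 13.3 TPM), with Pdgfra and Pdgfrb also higher in EV cells. Col1a1 went the other way (0.61 and 1.18 TPM). Summed breast epithelial markers were 225 to 269.9 TPM in EV and 96.8 to 164 TPM in E0771GFP cells. Their part in the result was not tested.

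Bnip3 had 38.7, 46.0 and 30.3 CPM in EV cells, against 73.1, 97.9 and 72.7 CPM in E0771GFP cells (-1.08 ± 0.17 (SE), adjusted p = 3.88e-05, log2 fold change). Ankrd37 had 2.50, 2.05 and 1.45 CPM in EV cells, against 5.64, 6.09 and 5.23 CPM in E0771GFP cells (-1.48 ± 0.20 (SE), adjusted p = 3.45e-06). In both, every EV library was below every parental library. Bnip3l had 149, 160.4 and 132 CPM in EV cells, against 233, 264 and 191 CPM in E0771GFP cells (-0.64 ± 0.11 (SE), adjusted p = 7.15e-05), and Eno2 had 3.58, 4.07 and 3.59 CPM against 8.81, 8.98 and 7.30 CPM (-1.16 ± 0.21 (SE), adjusted p = 8.54e-05). Neither overlapped between the lines. Adm had 20.03, 24.1 and 12.7 CPM in EV cells, against 25.3, 35.3 and 34.0 CPM in E0771GFP cells (-0.73 ± 0.29 (SE), adjusted p = 0.0394), and Car9 had 0.351, 0.765 and 0.581 CPM against 0.991, 0.935 and 0.625 CPM (-0.69 ± 0.29 (SE), adjusted p = 0.0471). The EV libraries of Adm were all below the parental ones while those of Car9 overlapped them, and each call was lost in 4 of the 6 fits that left out 1 library. Aldoc had 9 reads over the EV libraries and 20 over the parental ones (0.0627, 0.0273 and 0.0793 CPM in EV cells, against 0.227, 0.182 and 0.114 CPM in E0771GFP cells), and its call (-1.55 ± 0.59 (SE), adjusted p = 0.03, log2 fold change) was lost in 4 of those 6 fits as well.

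Higher in EV cells, Hk1, the housekeeping hexokinase, had 224, 212 and 224 CPM, against 116, 109.7 and 137 CPM in E0771GFP cells (0.86 ± 0.11 (SE), adjusted p = 2.29e-06, log2 fold change). Pkm, the pyruvate kinase of these cells, had 1991, 1962 and 2022 CPM in EV cells, against 979, 1156 and 1426 CPM in E0771GFP cells (0.75 ± 0.16 (SE), adjusted p = 4.98e-04). All EV libraries were above all parental ones for both. Egln3, a prolyl hydroxylase that is itself a HIF target, had 165, 161 and 145 CPM in EV cells, against 108, 101 and 91.7 CPM in E0771GFP cells (0.65 ± 0.11 (SE), adjusted p = 4.66e-05), also apart. Of the 48 further pathway genes 13 were higher and 14 lower, beside 28.9% and 29.0% of all genes tested. Loxl2 averaged 5.70 ± 1.14 CPM in EV cells and 50.6 ± 4.64 CPM in E0771GFP cells, Wsb1, part of a ubiquitin ligase, 81.2 ± 6.11 CPM and 159.9 ± 16.5 CPM, and Fam162a 52.0 ± 1.57 CPM and 95.8 ± 18.4 CPM (SD, n = 3 each).

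**Figure D4:**
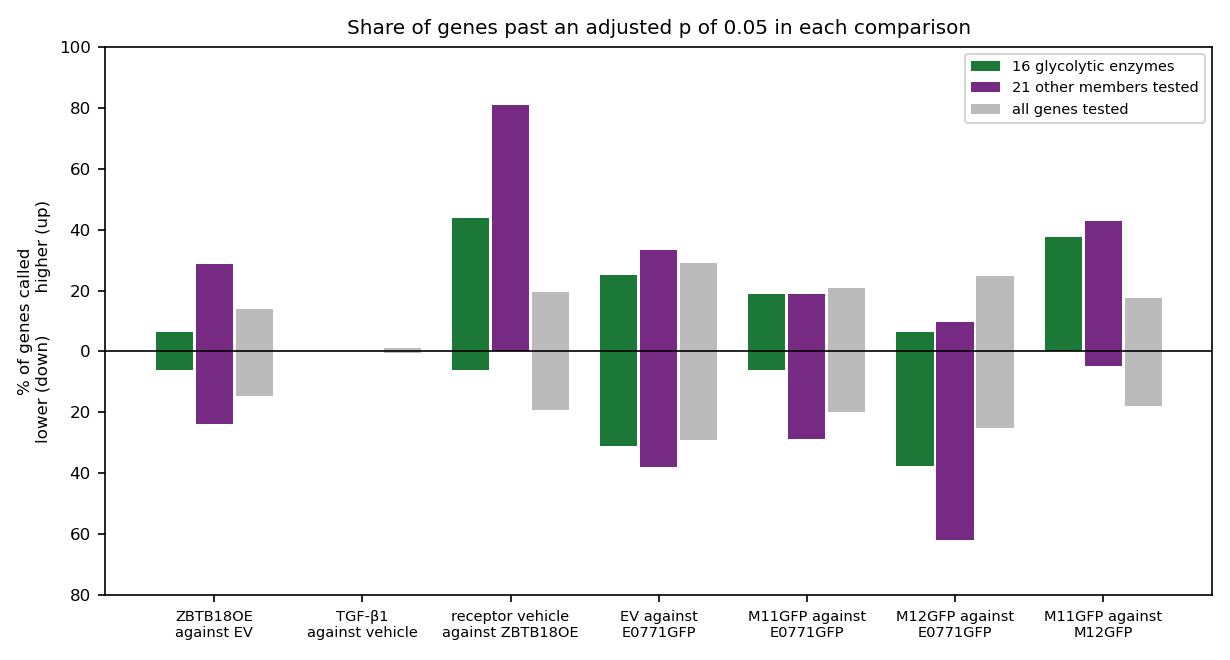
Percent of genes past an adjusted p of 0.05, higher (up) and lower (down), in the 7 comparisons, for the 16 enzymes, the 21 other members tested and all genes tested. The tallest bar is the 81.0% of other members higher in the receptor line with vehicle against ZBTB18OE cells, beside 43.8% of the enzymes and 19.5% of all genes.

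The metastasis lines M11GFP and M12GFP were both compared with the parental line and share its 3 libraries. M11GFP had 7 members higher and 7 lower, beside 20.8% and 20.0% of all genes tested. M12GFP had 3 members higher and 19 lower, beside 24.9% and 25.2%, with a median log2 fold change of -0.23 over the members and -0.01 over all genes tested. Lower in M12GFP were 8 of 12 other HIF targets, 6 of 16 enzymes, 2 of 3 flux regulators, Slc2a3, Egln1 and Hif1a. In M11GFP only 4 were lower without M11GFP replicate 2 or without E0771GFP replicate 2. Without M12GFP replicate 2, the library lowest for most enzymes, 12 members were lower, and Hk2, Pfkl, Pfkp, Pgk1, Hif1a, Egln1, P4ha1, P4ha2 and Higd1a no longer passed. On log2 TPM with limma the counts were 10 higher and 1 lower in M11GFP and 4 higher and 6 lower in M12GFP, where Pfkp and Hif1a turned to the other side of 0, with the median of all genes shifted by 0.20 and 0.25. Of all calls 77.4% were then higher in M11GFP and 78.1% in M12GFP, against 51.0% and 49.7% by edgeR.

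Ddit4 had 54.4, 58.5 and 59.4 CPM in M11GFP and 23.3, 43.9 and 32.7 CPM in M12GFP, against 137, 103 and 82.5 CPM in E0771GFP cells. All libraries of both metastasis lines were below the parental ones, with log2 fold changes of -0.91 ± 0.17 (SE), adjusted p = 3.45e-04 in M11GFP and -1.69 ± 0.18 (SE), adjusted p = 2.14e-07 in M12GFP. Ankrd37 had 4.21, 4.102 and 2.69 CPM in M11GFP and 1.99, 1.53 and 2.14 CPM in M12GFP, against 5.64, 6.09 and 5.23 CPM in E0771GFP cells. Neither line overlapped the parental cells (-0.61 ± 0.19 (SE), adjusted p = 0.0146 in M11GFP and -1.59 ± 0.20 (SE), adjusted p = 1.19e-06 in M12GFP, log2 fold change). Bnip3 had 70.4, 54.0 and 46.3 CPM in M11GFP and 52.1, 35.1 and 43.5 CPM in M12GFP, against 73.1, 97.9 and 72.7 CPM in E0771GFP cells (-0.51 ± 0.17 (SE), adjusted p = 0.0226 in M11GFP and -0.90 ± 0.17 (SE), adjusted p = 2.31e-04 in M12GFP, log2 fold change). The mitophagy receptor and the mTOR inhibitor were lower in both lines. In M11GFP the calls on Bnip3 and Ankrd37 were lost without M11GFP replicate 3 or E0771GFP replicate 2, and that on Bnip3 also without M11GFP replicate 2.

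Pdk1 had 104, 71.9 and 116 CPM in M12GFP, against 179.5, 182 and 148 CPM in E0771GFP cells (-0.81 ± 0.12 (SE), adjusted p = 1.33e-05, log2 fold change), without overlap. Slc2a3 had 18.1, 21.8 and 20.3 CPM in M12GFP, against 38.3, 32.7 and 30.7 CPM in E0771GFP cells (-0.75 ± 0.10 (SE), adjusted p = 2.66e-06). The M12GFP libraries were again all lower. Pfkm, the muscle-type phosphofructokinase, had 26.8, 30.5 and 25.6 CPM in M12GFP, against 47.9, 39.5 and 41.9 CPM in E0771GFP cells (-0.64 ± 0.09 (SE), adjusted p = 7.08e-06). Tpi1, the triose phosphate isomerase, had 799, 386 and 712 CPM in M12GFP, against 783, 1001 and 1173 CPM in E0771GFP cells (-0.64 ± 0.19 (SE), adjusted p = 0.00721). Pfkm did not overlap, while for Tpi1 the highest M12GFP library exceeded the lowest parental one. Pfkfb4 was lower in M12GFP, with a log2 fold change of -0.52.

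Higher in both lines, Aldoc had 0.668, 1.10 and 1.18 CPM in M11GFP and 1.10, 0.687 and 0.971 CPM in M12GFP, against 0.227, 0.182 and 0.114 CPM in E0771GFP cells. It stood at 29 to 44 reads per metastasis library and 4 to 8 per parental library (2.44 ± 0.41 (SE), adjusted p = 6.25e-05 in M11GFP and 2.37 ± 0.41 (SE), adjusted p = 5.37e-05 in M12GFP, log2 fold change). Slc2a1 had 189, 201 and 237 CPM in M11GFP and 166, 169 and 157 CPM in M12GFP, against 128, 123 and 146 CPM in E0771GFP cells (0.66 ± 0.09 (SE), adjusted p = 4.20e-06 and 0.31 ± 0.09 (SE), adjusted p = 0.00588). Both lines were above the parental cells. Ndrg1 had 166, 136 and 110.0 CPM in M12GFP, against 69.2, 49.2 and 52.6 CPM in E0771GFP cells (1.27 ± 0.15 (SE), adjusted p = 4.15e-07), and the groups were well apart. In M11GFP its log2 fold change was 0.51. Car9 had 1.71, 1.35 and 1.26 CPM in M11GFP, against 0.991, 0.935 and 0.625 CPM in E0771GFP cells (0.78 ± 0.26 (SE), adjusted p = 0.0222), and this call was lost without M11GFP replicate 1 or E0771GFP replicate 3.

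Set directly against each other, M11GFP had 15 members higher than M12GFP and 1 lower, beside 17.7% and 17.8% of all genes tested, with a median log2 fold change of 0.33. Pfkfb4 had 29.6, 27.5 and 26.3 CPM in M11GFP, against 12.5, 13.5 and 15.8 CPM in M12GFP (1.00 ± 0.10 (SE), adjusted p = 2.08e-07, log2 fold change). Ankrd37, Ddit4 and Car9, with the libraries given above, were higher in M11GFP by log2 fold changes of 0.97, 0.78 and 0.73, the last not without replicate 1 of either line. Pfkm had 40.6, 45.7 and 49.1 CPM in M11GFP, against the M12GFP values above (0.71 ± 0.09 (SE), adjusted p = 5.14e-06), and Ndrg1 was the member lower in M11GFP (-0.76 ± 0.14 (SE), adjusted p = 3.29e-04). Libraries of the lines overlapped for none of Pfkfb4, Ankrd37, Ddit4, Car9, Pfkm and Ndrg1. Same-numbered libraries of these lines deviated together, and with the replicate number as a block 17 members were higher. A limma fit on log2 TPM gave 9 higher.

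Chromosomes and other markers also differed between these lines. Of the 19 members lower in M12GFP than in E0771GFP cells 9 lie on chromosomes 6, 8 and 10, where lower genes outnumbered higher ones more than 2 to 1 (91 higher and 331 lower of 737 on chromosome 6, 91 and 422 of 826 on chromosome 8, 104 and 340 of 726 on chromosome 10). The other 10 lie elsewhere, and the members on these chromosomes that were not called are Eno2, Gapdh and Hk1. Of the 15 members higher in M11GFP than in M12GFP 9 lie on the same 3 chromosomes, where Pfkl, Tpi1 and Egln1 were not called. Zbtb18 itself averaged 34.7 ± 4.23 CPM in M11GFP and 59.2 ± 9.96 CPM in M12GFP, against 29.5 ± 1.40 CPM in E0771GFP cells (SD, n = 3 each). Summed fibroblast markers were 249 to 358 TPM in M11GFP, 70.9 to 130.4 TPM in M12GFP and 34.6 to 41.7 TPM in E0771GFP cells. Col3a1 made up most of the difference (means of 279, 70.2 and 13.3 TPM), and Pdgfra was also higher in both metastasis lines. Col1a1 was lower in both (0.22, 0.19 and 1.18 TPM). Pdgfrb was higher in M11GFP and lower in M12GFP (11.3, 4.70 and 7.07 TPM). Blood and immune markers summed to 26.5 to 95.4 TPM in M12GFP, 8.88 to 16.2 TPM in M11GFP and 4.73 to 9.04 TPM in E0771GFP cells, mostly Cd68, and 6 of 8 were under 1 TPM in all libraries of each line. The part of these in the results was not tested.

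Of the 48 further pathway genes tested 9 were higher and 16 lower in M11GFP than in E0771GFP cells, beside 20.8% and 20.0% of all genes tested. In M12GFP the counts were also 9 and 16, beside 24.9% and 25.2%. Bhlhe40 averaged 44.9 ± 3.99 CPM in M11GFP and 48.6 ± 1.83 CPM in M12GFP, against 100.4 ± 3.01 CPM in E0771GFP cells (SD, n = 3 each). Eno3, the muscle-type enolase, averaged 20.2 ± 1.09 CPM in M11GFP and 14.1 ± 0.640 CPM in M12GFP, against 49.1 ± 1.14 CPM in E0771GFP cells. Vhl, which targets the alpha subunit for destruction, averaged 28.6 ± 1.64 CPM in M11GFP and 24.2 ± 2.54 CPM in M12GFP, against 39.0 ± 0.435 CPM in E0771GFP cells (-0.45 ± 0.09 (SE), adjusted p = 5.16e-04 and -0.69 ± 0.09 (SE), adjusted p = 2.55e-06, log2 fold change). Gbe1 was higher in both lines, at 8.99 ± 0.530 CPM in M11GFP and 13.7 ± 0.319 CPM in M12GFP, against 5.42 ± 0.690 CPM in E0771GFP cells. Between the metastasis lines 8 of the 48 were higher and 11 lower in M11GFP, shares near the 17.7% and 17.8% of all genes tested.

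Isoenzyme balance was taken as a share of summed TPM. Hk2 supplied 38.8% ± 0.349 of hexokinase mRNA in the receptor line with TGF-β1 and 39.1% ± 0.857 with vehicle, 26.2% ± 1.82 in ZBTB18OE, 23.6% ± 0.0652 in M11GFP, 23.4% ± 2.77 in M12GFP, 19.3% ± 1.19 in EV and 27.1% ± 1.68 in E0771GFP cells (SD, n = 3 each). All receptor-line libraries were above all others, and EV was lowest. Pfkp supplied 71.3% ± 1.83 of phosphofructokinase mRNA with TGF-β1, 69.8% ± 1.42 with vehicle, 63.4% ± 0.677 in ZBTB18OE, 56.1% ± 5.08 in M11GFP, 55.5% ± 4.90 in M12GFP, 45.4% ± 1.89 in EV and 49.8% ± 7.36 in E0771GFP cells. ZBTB18OE lay between the receptor line and the rest. Bnip3 supplied 45.2% ± 1.85 of the summed Bnip3 and Bnip3l level with TGF-β1 and 43.6% ± 0.739 with vehicle, against 24.5% ± 2.60 in M12GFP and 33.8% ± 3.29 in E0771GFP cells. P4ha2 supplied 59.5% ± 3.21 of the collagen prolyl hydroxylase pair with TGF-β1, 55.5% ± 2.25 with vehicle, 54.4% ± 1.98 in ZBTB18OE, 47.4% ± 1.32 in EV and 36.1 to 38.9% in the means of M11GFP, M12GFP and E0771GFP cells. Aldoa and Eno1 supplied over 98.5% of their pairs in every library. These shares are a description and were not tested.

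**Figure D5:**
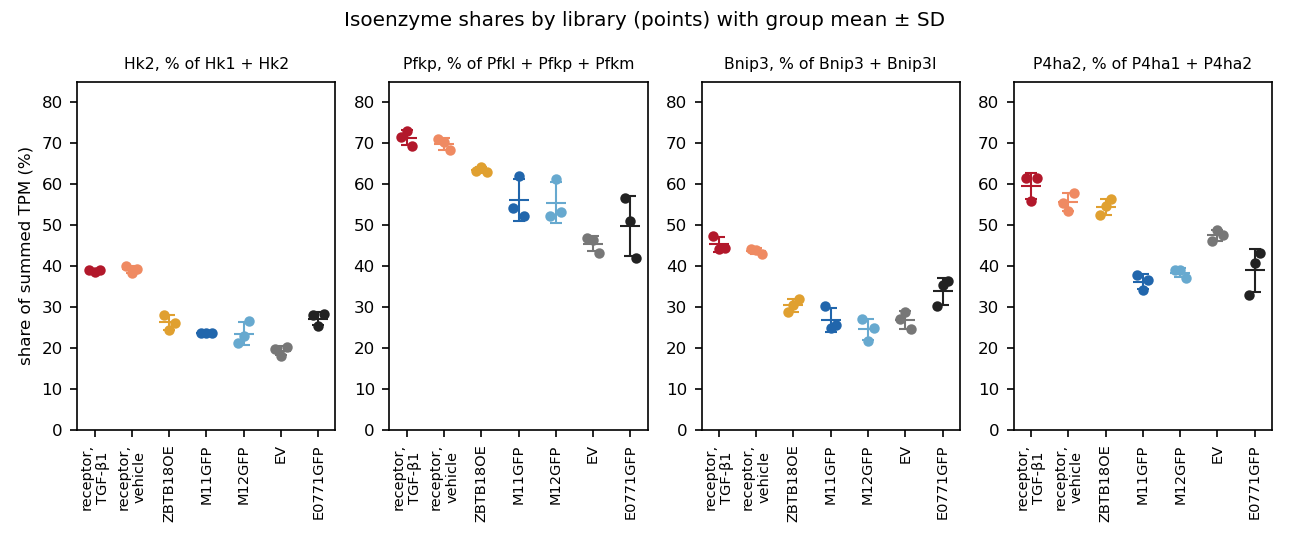
Share of summed TPM (%) held by Hk2, Pfkp, Bnip3 and P4ha2 within their isoenzyme families, by library (points) with group mean ± SD. The 6 receptor-line libraries hold the highest shares of Hk2, Pfkp and Bnip3, with Hk2 at 38.3 to 40.0% there.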

How the data were processed

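The authors deposited RSEM expected counts and TPM per gene for the 21 libraries, made from polyadenylated RNA sequenced with a stranded kit, per the labels' protocols. The submitters' processing notes name RSEM, GATK 4.1.2.0, STAR 2.7.1a and Trim Galore, and the build mm10. FPKM values were not used. Expected counts were rounded to whole numbers (1.28% of values were not whole), and 92 spike-in entries, all at 0 reads, were left out. The members and lists were chosen with earlier results of these data known. Genes that passed edgeR's filterByExpr were fitted by edgeR 4.0.16 (R 4.3.3) with TMM scaling and 1 robust quasi-likelihood model over all 7 groups (14 residual degrees of freedom). The two-sided tests used Benjamini-Hochberg adjustment over 15432 genes, a threshold of 0.05 and an SE taken as the log2 fold change over the square root of F. The scripts were tested on simulated counts. Values in every library are given for members past 0.05 with a fold of at least 1.5, for Hif1a, and for some members named beside the TGF-β1 result. Up to 4 further genes per list were eligible to be named by fold at a mean of at least 5 CPM. Levels are compared between genes only in TPM. Alternatives used DESeq2 1.42.0, limma 3.58.1 on log2(TPM + 1) or log2(TPM + 0.1), other filters and scalings, only the 6 libraries of a comparison, each library left out, and the replicate number as a block. Reads of named relatives were added to members in a further alternative chosen after seeing the data. Same-numbered libraries deviated together in TGF-β1 against vehicle (correlations 0.235 to 0.538) and in M11GFP against M12GFP (0.221 to 0.440), so the numbers in the titles pair those libraries by the data, and not elsewhere. Promoters came from RefSeq for GRCm38.p6. Python 3.11.15, pandas 2.3.3 and matplotlib 3.10.9 were used for promoters and figures.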

Additional observations from a re-analysis of the deposited data

Results flagged for a closer look

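By edgeR, Pfkp and Pfkfb4 differed from the parental line in opposite directions in the metastasis lines. For Pfkp the log2 fold change against E0771GFP cells was 0.24 in M11GFP and -0.21 in M12GFP, and the difference itself, M11GFP minus M12GFP, was 0.45 by edgeR's quasi-likelihood test. For Pfkfb4 the values were 0.48 in M11GFP and -0.52 in M12GFP, and the difference was 1.00. Both differences passed an adjusted p of 0.05 under every alternative run. The single-line values of Pfkp were less stable. Its M12GFP value turned to 0.030 in both limma fits on log2 TPM, and that call was lost without M12GFP replicate 1 or 2 or E0771GFP replicate 1, with no filter and with only the 6 libraries. The M11GFP call on Pfkp was lost without M11GFP replicate 2 or E0771GFP replicate 3, with no filter and with only the 6 libraries. For Pfkfb4 the M12GFP call was lost in both limma fits.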

How the results depend on the processing

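The 24 members higher and 1 lower in the receptor line with vehicle against ZBTB18OE cells stayed within 1.5 times under every alternative run, except that 2 were lower with only those 6 libraries. The other counts moved more, and the cause was not tested. For TGF-β1 against vehicle, members higher (0 by edgeR) came to 1 with DESeq2, 5 with no filter, 10 with only the 6 libraries and 1 with the replicate block, and members lower to 3 with only the 6 libraries. All genes called there (295 by edgeR) came to 594 with DESeq2, 633 with no filter, 1349 with only the 6 libraries, 112 and 81 with limma on log2(TPM + 1) and log2(TPM + 0.1), and 71 to 183 with 1 library left out. For ZBTB18OE against EV, members higher came to 4 with either limma fit and 3 to 7 with 1 library left out. For EV against E0771GFP, members lower came to 4 with either limma fit and 7 to 13 with 1 library left out. For M11GFP against E0771GFP, only the 6 libraries gave 4 members higher, 3 lower and 4015 genes called, either limma fit gave 1 lower, and leaving out 1 library gave 4 to 8 lower. For M12GFP against E0771GFP, members lower came to 9 with only the 6 libraries (5113 genes called), 6 with either limma fit and 12 to 21 with 1 library left out. For M11GFP against M12GFP, members higher came to 9 with either limma fit, members lower to 2 with no filter and 1 to 2 with 1 library left out, and genes called to 3497 with only the 6 libraries. There 40.2% and 41.1% of all calls were higher in M11GFP by limma, against 49.9% by edgeR. Directions turned only in the limma fits with pseudocounts of 1 and 0.1: Pfkp (0.30 and 0.31) and Aldoa (0.095 and 0.095) in EV against E0771GFP, and Pfkp (0.030 and 0.030) and Hif1a (0.000896 and 0.000914) in M12GFP against E0771GFP. Outside TGF-β1 against vehicle the replicate block moved no count of members by more than 1.5 times. Depth limits Epas1, Aldoc and, outside the receptor line, Car9.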
